A study of Mus musculus with 6 samples.

Results

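Genes typical of eosinophils, basophils and mast cells were examined in 2 populations of mouse dendritic cells, one carrying the surface protein Ly6G and one lacking it. The 10 genes were Prg2, Ear2, Epx, Ccr3, Il1rl1, Gata2, Cpa3, Mcpt8, Ms4a2 and Fcer1a. They were chosen by name as genes of these lineages, at a time when the signals of the same 6 arrays and the group difference of Prg2 were already known, so their differences between the populations are given as descriptions, without a test. Every probe set annotated with 1 of these symbols alone was taken, which gave 10 probe sets of 8 genes among the 45101 probe sets and 18194 genes of the table. Gata2 and Ms4a2 had 2 probe sets each and the other 6 genes had 1. Ear2, an eosinophil ribonuclease, and Il1rl1, the receptor for interleukin 33, were not analysed here.

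Both populations came from bone marrow of C57BL/6 mice, grown for 6 days with 10 ng/ml of GM-CSF, a growth factor from which such cultures yield dendritic cells together with other myeloid cells. Cells positive for CD11c and MHC class II were separated by flow cytometry into Ly6G+ DC and Ly6G- DC, taken at the same time out of shared cultures, with no gene deletion or added stimulus named in the labels. There were 3 arrays per group, numbered 1 to 3, of the type Affymetrix Mouse Genome 430 2.0. The starting material was unfractionated marrow. The labels do not say whether arrays of a group came from separate mice or cultures, so the spread between them may be technical.

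Eosinophils, basophils and mast cells are granule-bearing cells of the marrow and tissues that are known for their part in allergy and in defence against worms. Eosinophil granules hold major basic protein, a peroxidase and ribonucleases. Mast cells and basophils carry the high-affinity receptor for immunoglobulin E and hold proteases in their granules. The transcription factor GATA2 acts early in all 3 lineages and in blood stem and progenitor cells.

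On the arrays, the eosinophil granule genes Prg2 and Epx were higher in all Ly6G+ samples than in any Ly6G- sample, with fold differences of 6.11 and 3.95. Of all probe sets not near background, 4.49% were higher with no overlap. The Epx value leans on 1 dim array, Ly6G- DC 3, with a signal of 12.1. Without that array the log2 fold change of Epx fell from 1.98 to 1.13. Gata2 was measured on all arrays and its groups overlapped. The mast cell and basophil protease genes Cpa3 and Mcpt8 were dim and overlapped between groups. Ccr3, Ms4a2 and Fcer1a lay near background. Fold differences here compare group means of log2(signal + 16), Ly6G+ DC over Ly6G- DC, and the pseudocount of 16 understates the change of dim genes.

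A signal is the linear brightness of a probe set as the authors deposited it. The deposited table has no detection calls, so a probe set was said to be near background when its signal was at or under the 40th percentile of the array on at least 4 of the 6 arrays. That percentile was 36.0 to 61.7 across arrays. By this rule 4 probe sets of 3 genes lay near background and 6 probe sets of 5 genes did not. The last to pass was Mcpt8, above the percentile on 3 arrays, and the first to fail was the Ms4a2 probe set 1443264_at, above it on 2. Control probe sets for a bacterial tryptophan synthesis gene, which measure a transcript that mouse cells do not make, gave signals of 0.783 to 35.7. They are a lower limit than the percentile: the highest of them on each array was exceeded by all 10 member probe sets on at least 3 arrays.

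Transcripts of the surface proteins used in the sort were bright in both populations. Itgax, which encodes CD11c, had signals of 2728 to 7884 for Ly6G+ against 5610 to 9630 for Ly6G- cells. H2-Ab1, an MHC class II chain, had 10090 to 16310 against 17390 to 21660 and so was lower on all Ly6G+ arrays. Of the 5 measured sort genes (with H2-Aa, H2-Eb1 and Cd74) all had negative log2 fold changes, with a median of -0.57, and 2 were lower with no overlap. Over all genes, each by its brightest probe set not near background, 7.86% were lower with no overlap. Ly6g was not analysed here. The arrays also differed in ways the groups do not explain. Hybridization controls, which are spiked in before hybridization, had a mean signal of 1255 to 1643 on Ly6G+ DC 1, Ly6G+ DC 3 and Ly6G- DC 1, called the low side here. They had 5570 to 10440 on Ly6G+ DC 2, Ly6G- DC 2 and Ly6G- DC 3, the high side. For Actb the 3' signal divided by the 5' signal, a measure of how complete the labelled RNA was, came to 1.17 to 1.49 for low-side arrays and 3.98 to 6.85 for high-side arrays. What separates the sides is not given in the sources used here. Values within each side are given below, and each compares 1 array with 2.

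The eosinophil granule genes are described first. Prg2 encodes major basic protein, the main protein of the eosinophil granule core. Its signals were 1468, 604 and 2106 on Ly6G+ DC 1, 2 and 3, and 398, 143 and 114 on Ly6G- DC 1, 2 and 3. All 3 Ly6G+ arrays lay above all 3 Ly6G- arrays, and the lowest Ly6G+ array was on the high side. Every array was above its 40th percentile, so the gene was measured in both populations. Mean signals were 1393 ± 754 for Ly6G+ DC against 218 ± 157 for Ly6G- DC (SD, n = 3), and the log2 fold change was 2.61 ± 0.53 (SE). It was 2.10 within the low side and 2.11 within the high side of the hybridization controls. It was 1.84 between the arrays numbered 1, whose titles carry a different array name from the rest, and 3.0 among the other 4.

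The rank of a probe set within its own array does not depend on scaling. Prg2 stood at percentiles 94.6, 87.8 and 96.0 for Ly6G+ cells but 82.5, 63.5 and 56.6 for Ly6G- cells, so its groups did not overlap by rank either.

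Epx encodes eosinophil peroxidase, which makes oxidants from hydrogen peroxide and halides. Its signals were 448, 301 and 307 on Ly6G+ DC 1, 2 and 3, and 200, 111 and 12.1 on Ly6G- DC 1, 2 and 3. The Ly6G+ arrays were again above the Ly6G- arrays, with the lowest of them at 301 against the highest Ly6G- value of 200. Ly6G- DC 3 was the one array under its 40th percentile, at percentile 15.2, where the other 5 stood at 56.6 to 83.5. Means were 352 ± 83.2 and 108 ± 93.9 (SD, n = 3), with a log2 fold change of 1.98 ± 0.64 (SE). Without Ly6G- DC 3 it was 1.13, and without Ly6G- DC 1 it was 2.60. Within the sides of the hybridization controls it was 0.84 (low) and 2.41 (high).

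Ccr3, the receptor through which eosinophils follow eotaxins, lay near background. Ly6G+ DC 1, 2 and 3 gave 34.0, 4.97 and 4.77, and Ly6G- DC 1, 2 and 3 gave 40.5, 3.63 and 9.50. None of the 6 was above the 40th percentile of its array, and the brightest value of each group came from the array numbered 1. No fold is given for it.

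**Figure D1:**
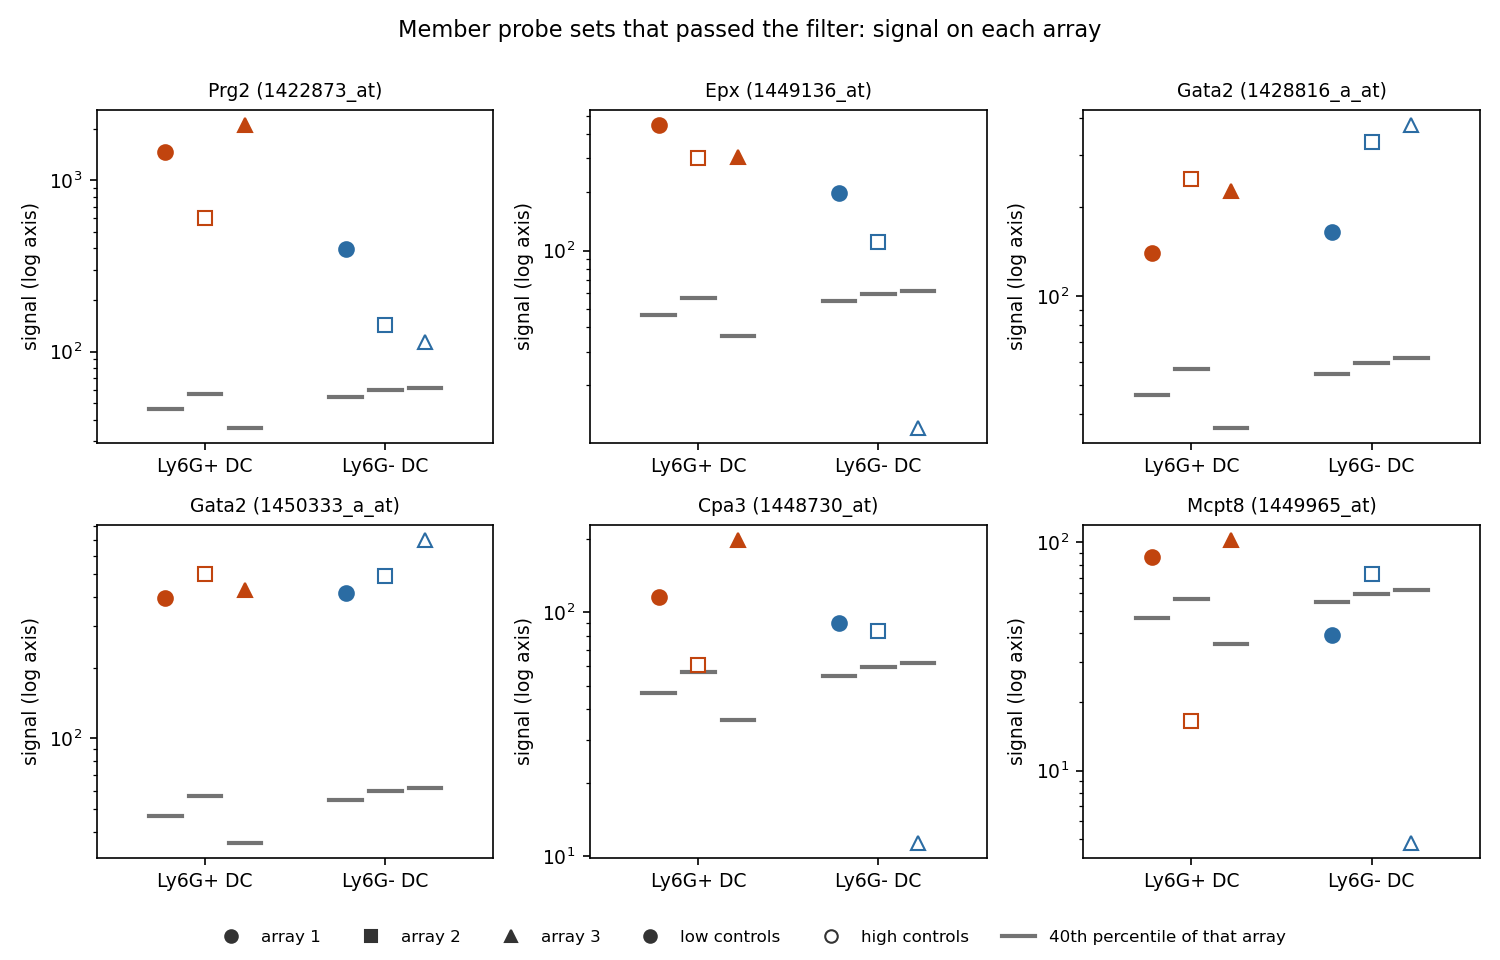
Signal of the 6 member probe sets that passed the filter, on a log axis, for 3 Ly6G+ DC and 3 Ly6G- DC arrays; shapes mark the array number, filled and open symbols the low and high side of the hybridization controls, and grey bars the 40th percentile of each array. Prg2 and Epx are higher on all Ly6G+ arrays than on any Ly6G- array, while Gata2, Cpa3 and Mcpt8 overlap between groups.

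Gata2 was measured on all arrays by both of its probe sets. By probe set 1450333_a_at the signals were 397, 504 and 427 on Ly6G+ DC 1, 2 and 3, and 417, 495 and 702 on Ly6G- DC 1, 2 and 3. Groups overlapped, and only Ly6G- DC 3 stood above the Ly6G+ range. The log2 fold change was -0.25 ± 0.31 (SE), and it turned to 0.07 once the arrays had been scaled to 1 median.

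The other Gata2 probe set, 1428816_a_at, gave signals of 140, 249 and 226 for Ly6G+ DC 1, 2 and 3, against 164, 332 and 379 for Ly6G- DC 1, 2 and 3. Its groups overlapped too, and its log2 fold change was -0.43 ± 0.39 (SE). Its signals sorted by the hybridization controls rather than by the group, with 140 to 226 for low-side arrays and 249 to 379 for high-side arrays. The difference between the populations was 0.11 within the low side and -0.48 within the high side. Whether the technical side sets these values was not tested.

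Cpa3 encodes the carboxypeptidase A of mast cell granules, which is also made by basophils and their progenitors. Its signals were 116, 60.9 and 198 on Ly6G+ DC 1, 2 and 3, and 90.3, 83.4 and 11.4 on Ly6G- DC 1, 2 and 3. Groups overlapped, since Ly6G+ DC 2 lay under Ly6G- DC 1 and Ly6G- DC 2. It was above the 40th percentile on 5 arrays, all but Ly6G- DC 3, and above the 60th on 2. The log2 fold change was 0.97 ± 0.62 (SE), and 0.33 without Ly6G- DC 3. Without Ly6G+ DC 3 it was 0.61, and between the arrays numbered 2 the difference was -0.37.

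Mcpt8 encodes a serine protease that in mice marks basophils. Ly6G+ DC 1, 2 and 3 had 86.6, 16.4 and 103, whereas Ly6G- DC 1, 2 and 3 had 39.2, 72.8 and 4.83. It exceeded the 40th percentile on Ly6G+ DC 1, Ly6G+ DC 3 and Ly6G- DC 2 only, and no group lay apart from the other. Differences within pairs of the same number were 0.89, -1.45 and 2.51 on the log2 scale, which gave no common direction. The fitted log2 fold change was 0.65 ± 0.74 (SE), with 3 of the 6 values under their percentile. Without Ly6G- DC 3 it was 0.07, and without Ly6G+ DC 2 it was 1.24.

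The receptor for immunoglobulin E is built of an alpha chain that binds the antibody, from Fcer1a, a beta chain that strengthens the signal, from Ms4a2, and a gamma chain, from Fcer1g. Fcer1a had signals of 5.60, 52.1 and 3.10 on Ly6G+ DC 1, 2 and 3, and 27.1, 22.1 and 43.9 on Ly6G- DC 1, 2 and 3. All 6 were under the 40th percentile of their arrays, and the spread within Ly6G+ DC covered the whole Ly6G- range. Ms4a2 gave by probe set 1421475_at 4.01, 87.2 and 4.06 for Ly6G+ against 36.3, 4.47 and 13.9 for Ly6G- cells, with 1 array above the percentile, Ly6G+ DC 2. By probe set 1443264_at it gave 62.7, 12.1 and 21.5 for Ly6G+ against 68.3, 4.14 and 13.2 for Ly6G- cells, with the 2 arrays numbered 1 above it. The 2 probe sets of Ms4a2 thus put different arrays on top, and neither gave a level above background in most samples.

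**Figure D2:**
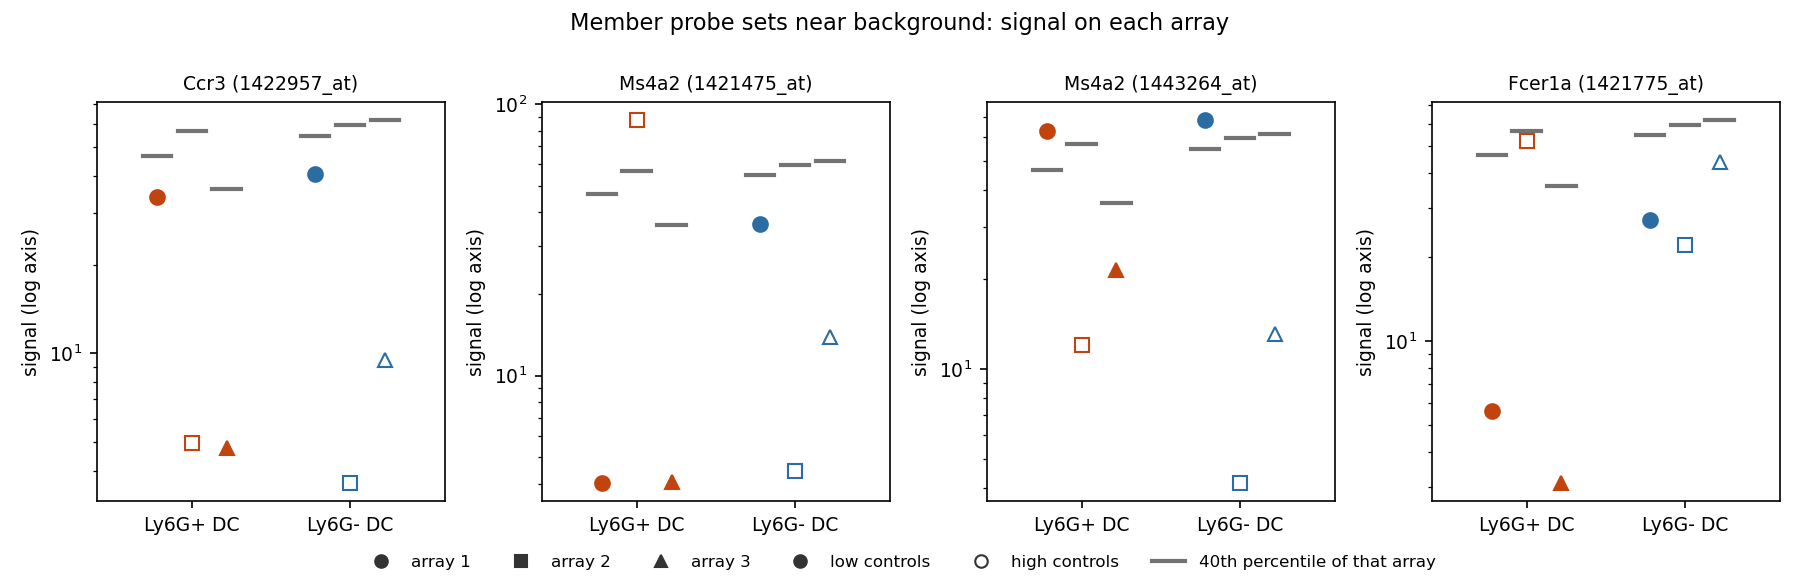
Signal of the 4 member probe sets near background, on a log axis, drawn as for the brighter probe sets. The points lie mostly under the grey 40th percentile bars of their arrays, with Ccr3 and Fcer1a under them on all 6.

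**Figure D3:**
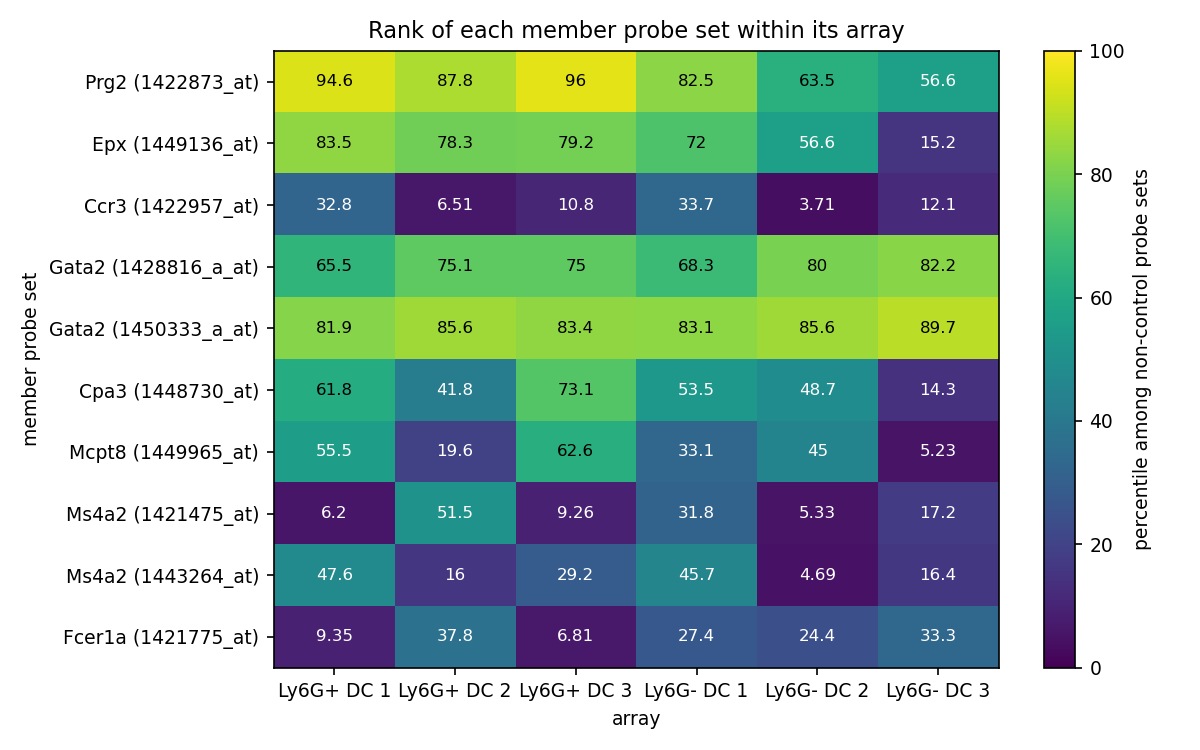
Percentile of each member probe set among all non-control probe sets of the same array, for the 6 arrays. Prg2 falls from 94.6, 87.8 and 96.0 for Ly6G+ cells to 82.5, 63.5 and 56.6 for Ly6G- cells. Gata2 lies between 81.9 and 89.7 by 1450333_a_at and between 65.5 and 82.2 by 1428816_a_at.

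In the limma fit over the 28254 probe sets that passed the filter, 0 probe sets, 0%, had a Benjamini-Hochberg adjusted p under 0.05, and the smallest adjusted p was 0.165. A block for array name raised that count from 0 to 21, and a block for replicate number raised it to 19. At an unadjusted p under 0.05 there were 778 higher and 811 lower probe sets in Ly6G+ DC. Of the 6 member probe sets in the fit, 2 were higher with no overlap between groups, where 4.49% of all probe sets were, and 0 were lower with no overlap, where 7.24% were. Since the genes were chosen with these values known, nothing is read from those counts. The median log2 fold change of all probe sets was -0.06, and scaling to a common median raised it by 0.30. Quantile normalization, which moved it by 0.08, gave Prg2 2.66 and Epx 2.04.

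**Figure D4:**
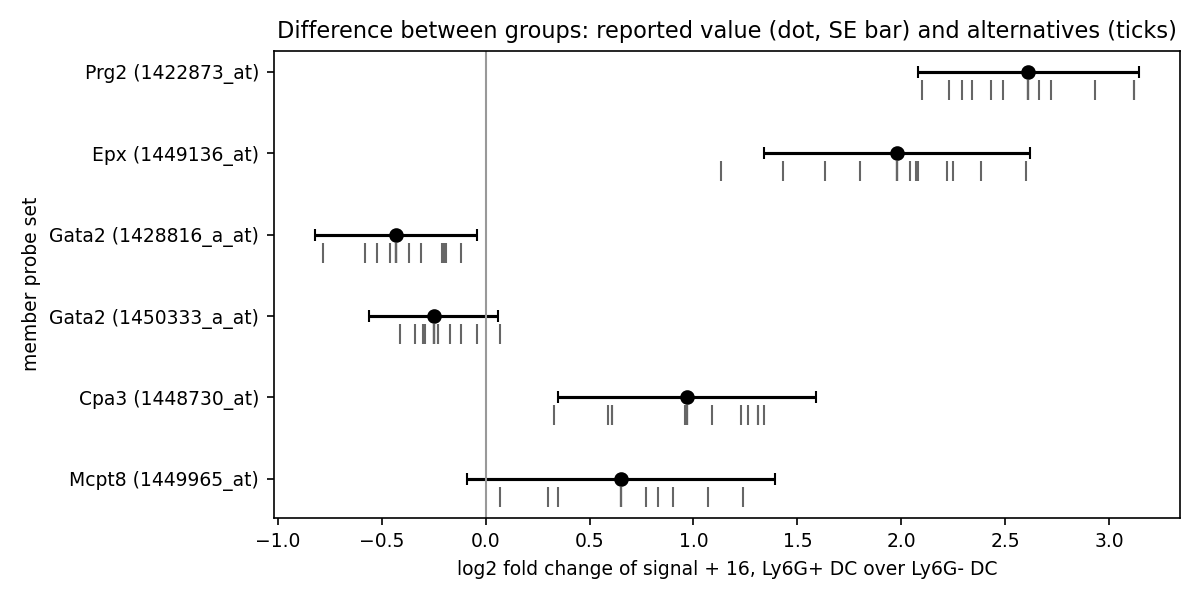
Log2 fold change of signal + 16, Ly6G+ DC over Ly6G- DC, for the 6 member probe sets in the fit; dots and bars are the value and its SE, and grey ticks are the values under other processing. Prg2 and Epx stay above 0 in all 16 alternatives, at 2.10 to 3.12 and 1.13 to 2.60, and Gata2 by 1450333_a_at has ticks on both sides of 0.

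Markers of neutrophils, dendritic cells and lymphocytes differed between the groups to varying extents, while erythroid genes overlapped. The 12 measured genes of a neutrophil list, S100a8, S100a9, Lcn2, Ngp, Camp, Ltf, Mmp9, Cxcr2, Csf3r, Cd177, Stfa2l1 and Padi4, were all higher in Ly6G+ DC with no overlap, and their summed signal was 69510 to 94360 there against 2345 to 13410 in Ly6G- DC. Cxcr2 and Cd177 were above the 40th percentile on the 3 Ly6G+ arrays only. Camp, Stfa2l1 and Padi4 were above it on 4 arrays, all those of Ly6G+ DC and Ly6G- DC 2. These genes passed the filter only or mainly through the group where they were high. The 12 include them, and nothing is read from their order. Of 9 dendritic cell markers 6 were lower with no overlap, and the summed signal of the 9 was 21820 to 33070 against 29830 to 56150. The 6 include Flt3, which was above the percentile on 4 arrays, all those of Ly6G- DC and Ly6G+ DC 3. Nothing is read from its order either. Of 4 lymphocyte markers 3 were lower with no overlap (summed signal 565 to 1179 against 1522 to 1957), and of 3 erythroid genes 0 stood apart (2484 to 3175 against 2778 to 4327); Cd3e and Hba-a1 failed the filter. Over all genes, each by its brightest probe set in the fit, 4.95% were higher and 7.86% lower with no overlap. In mixed RNA, a larger share of cells with a transcript and more transcript per cell cannot be told apart. The part of these other cells in the signals of Prg2 and Epx was not tested.

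Further genes of the 3 lineages were taken from 6 lists, without the members. Of 73 such genes with a probe set, 54 had one that passed the filter, and each was represented by its brightest. By limma 0 of the 54 passed an adjusted p of 0.05. At an unadjusted p under 0.05 there were 5 higher and 3 lower, together 14.8%, where 6.18% of the 13262 genes measured this way were. The higher genes were Csf1, Lat2, Lcp2, Lmo2 and Ptpn6, and the lower ones Fyn, Irf8 and Stat5a. The eosinophil and mast cell lists held 0 of them, and Irf8 was also counted among the dendritic cell markers. Nothing about the 3 lineages is read from that share. With no overlap between groups there were 5 higher and 4 lower, 9.26% and 7.41%, against 4.95% and 7.86% of all genes. The median log2 fold change of the 54 was 0.00, against -0.07 over all genes.

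Of 6 other eosinophil genes that passed the filter, 4 had positive and 2 negative log2 fold changes, with a median of 0.18 and 0 without overlap. Adgre1, which encodes the surface protein F4/80, had 0.19 ± 0.30 and Ltc4s, the enzyme that makes leukotriene C4, -0.20 ± 0.52 (SE); both are also expressed by other myeloid cells. Siglecf and Ear3, chosen after their values were seen, had the 2 highest values of the list. Siglecf, an eosinophil surface lectin also found on some macrophages, had 0.76 ± 0.58. Ear3, a ribonuclease gene of the same family as Ear2, had 0.59 ± 0.54. Rnase2a and Rnase2b, the other ribonuclease genes that passed, had 0.17 ± 0.48 and -0.20 ± 0.80. Siglecf had signals of 183, 470 and 598 for Ly6G+ against 90.8, 478 and 217 for Ly6G- cells, so its groups overlapped. Ear3 gave 176, 437 and 434 against 81.4, 330 and 327, also with overlap, and close relatives of that family may share its probes. Il5ra, the receptor chain for interleukin 5, Prg3, a homologue of Prg2, and Alox15, a lipoxygenase, failed the filter. Il5ra and Prg3 were above the 40th percentile on 0 of the 6 arrays and had signals of 1.39 to 42.5 and 14.6 to 41.8.

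Of 6 other basophil genes that passed, 4 were positive and 2 negative, with a median of 0.13; Il13 and Itga2 failed the filter. Csf1, a macrophage growth factor and the brightest of that list, was higher with no overlap, with a log2 fold change of 0.86 ± 0.30 (SE) and an adjusted p of 0.836 by limma. Il18rap, a chain of the interleukin 18 receptor, had 0.10 ± 0.29. Of 15 other mast cell genes with a probe set, 9 failed the filter: Tpsab1, Cma1, Mcpt1, Mcpt2, Mcpt4, Hdc, Tph1, Mrgprb1 and Hs3st1, which include genes of a tryptase, of chymases and of the histamine-forming enzyme. Another mast cell tryptase gene, Tpsb2, passed on 4 of 6 arrays, with 36.8, 86.2 and 41.5 for Ly6G+ against 53.0, 124 and 80.5 for Ly6G- cells, which overlapped; it and Kit were chosen after their values were seen. Of the 6 that passed, 1 was positive and 5 negative, with a median of -0.22. Srgn, the core of granule proteoglycans in many blood cells, had -0.27 ± 0.43 and Ndst2, which helps to make heparin, -0.12 ± 0.31. Kit, the receptor for stem cell factor, was above the 40th percentile on all 6 arrays, with 409, 332 and 485 for Ly6G+ against 751, 339 and 375 for Ly6G- cells, which overlapped.

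All 13 measured genes of signalling below the immunoglobulin E receptor passed the filter, with 9 positive and 4 negative values and a median of 0.34. Many of them serve other immune receptors as well. Fcer1g, the gamma chain shared with Fc gamma receptors, had signals of 11310, 3644 and 11590 for Ly6G+ against 9193, 3449 and 2456 for Ly6G- cells. It was thus bright in both populations where Fcer1a and Ms4a2 were near background. Its log2 fold change was 0.87 ± 0.57 (SE), and 0.32 within either side of the hybridization controls. Syk, the kinase that binds the phosphorylated gamma chain, had -0.39 ± 0.37. One gene of this list was higher with no overlap, Ptpn6, a phosphatase, and 1 lower, Fyn, a kinase, both named after their values were seen. Over all genes 4.95% were higher and 7.86% lower with no overlap.

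Of 9 genes on the interleukin 33 and interleukin 5 axis that passed, 3 were positive and 6 negative, with a median of -0.20, and 0 stood apart. Csf2rb, the beta chain shared by the receptors for GM-CSF, interleukin 3 and interleukin 5, had -0.48 ± 0.52 and its close relative Csf2rb2 -0.23 ± 0.34 (SE). Il33, Il5, Ccl11 and Ccl24, which encode ligands of this axis, failed the filter. Of 14 transcription factor genes, 3 were higher and 3 lower with no overlap, where 4.95% and 7.86% of all genes were. The median was -0.11, and the 3 lower genes include Gata1, described below. The brightest, Xbp1 and Cebpb, had -0.68 ± 0.42 and 0.77 ± 0.36. Gata1, a relative of Gata2 that eosinophils and mast cells require, was chosen after its values were seen: its signals were 36.2, 53.3 and 39.0 for Ly6G+ against 96.7, 60.9 and 140 for Ly6G- cells, lower with no overlap. It passed the filter through the Ly6G- arrays, all 3 above their 40th percentile, where 1 of the 3 Ly6G+ arrays was, so no fold is given and nothing is read from its order.

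**Figure D5:**
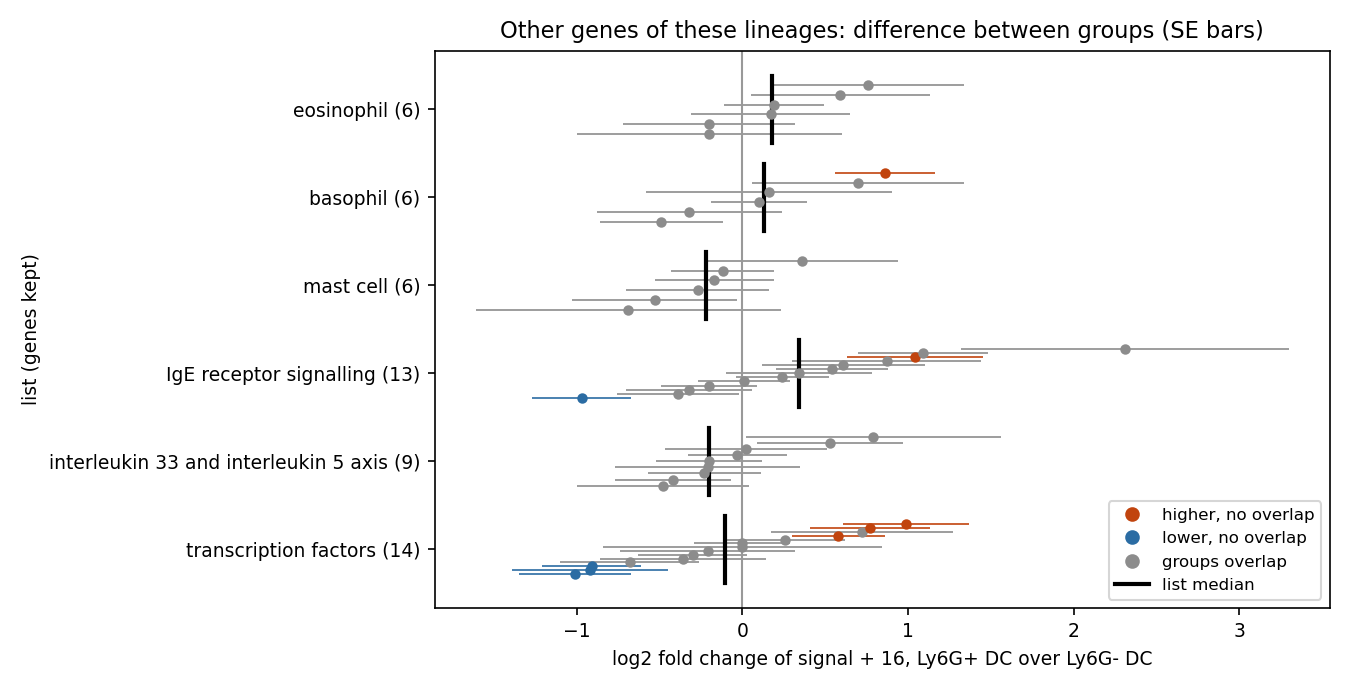
Log2 fold change of signal + 16, Ly6G+ DC over Ly6G- DC, with SE bars, for the other genes of 6 lists that passed the filter; colours mark genes whose groups do not overlap and black lines the list medians. The medians lie between -0.22 and 0.34, and 5 of the 54 genes are higher and 4 lower with no overlap.

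The genes whose pattern over the 6 arrays was most like that of Prg2 were sought among 6857 genes with a mean log2 signal above the 60th percentile of the fit. They were B4galt6, Ubqln1, Dhrs7, Il1a and Ptgs2, with Pearson correlations of 0.998, 0.996, 0.994, 0.991 and 0.989 over 6 arrays. These points share the split into 2 groups, and with so many genes compared over 6 arrays the values describe the ranking only. Ptgs2, the inducible cyclooxygenase, had signals of 1239, 478 and 1850 for Ly6G+ against 230, 136 and 101 for Ly6G- cells, the same order of arrays as Prg2. B4galt6, a galactosyltransferase, differed far less, with 992, 829 and 1038 against 740, 588 and 573.

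Promoter sequence from RefSeq (build GRCm38.p6) was found for 9 of the 10 genes, and not for Prg2. Because Gata2 is among the genes, the 250 bases before each start were searched for the GATA core GATAA on both strands, the only motif searched. It was found for 5 of the 9 genes, Ccr3, Il1rl1, Cpa3, Ms4a2 and Fcer1a, and in 22.6% of the 32851 promoters of the table. The units differ, since a gene counted if any of its promoters matched, and Il1rl1 and Gata2 had more than 1. The 120 bases before the start, 5' to 3' on the gene's strand, are shown for Epx, the gene other than Prg2 whose groups did not overlap, for Cpa3, a dim gene, and for Fcer1a, which lay near background. Capitals mark the match, GATAA or its reverse complement.
Epx, chr11:87875537-87875656, minus strand: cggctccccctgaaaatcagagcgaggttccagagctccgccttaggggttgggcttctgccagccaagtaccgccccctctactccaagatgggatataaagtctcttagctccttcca
Cpa3, chr3:20242182-20242301, minus strand: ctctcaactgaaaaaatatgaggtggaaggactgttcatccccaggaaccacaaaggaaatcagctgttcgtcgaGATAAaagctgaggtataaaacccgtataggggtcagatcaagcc
Fcer1a, chr1:173227230-173227349, minus strand: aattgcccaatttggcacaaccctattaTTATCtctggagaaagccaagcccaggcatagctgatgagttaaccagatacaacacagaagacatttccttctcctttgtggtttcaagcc
The Epx window holds no match, and those of Cpa3 and Fcer1a hold 1 each, where 10.5% of all promoters hold a match in this window. A match in these letters is a description and shows no binding.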

How the data were processed

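RNA of 6 sorted samples was measured on 6 arrays, 1 per sample. The deposited values are linear signal intensities per probe set, and their 2% trimmed mean was the same, 250, on all 6 arrays. MAS5, GCOS and Affymetrix Expression Console 2.0 stand in the submitters' processing notes, without their settings. In MAS5 the mismatch probes are used to correct each signal, so low values carry large errors. Genes came from the platform's annotation, in which 34958 probe sets had 1 symbol.

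The 64 control probe sets were left out of the fit. A probe set entered the fit if its signal exceeded the 40th percentile of its array on at least 3 of the 6 arrays, whatever the group. Values were log2(signal + 16), fitted across all kept probe sets with limma 3.58.1 in R 4.3.3 (group alone, intensity trend, Benjamini-Hochberg adjustment, threshold 0.05). The number of arrays limits the precision. Samples were grouped by their titles. The members and lists were chosen with earlier results of these data known. In each of the 6 lineage gene lists, the 2 genes of highest mean log2 signal were named, with any gene past the threshold. Genes named after their values were seen are marked as such. The sort genes Itgax and H2-Ab1 were not picked by this rule. Alternatives were other normalizations, pseudocounts, filters and blocks, no intensity trend, and leaving out each array.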

Additional observations from a re-analysis of the deposited data

How the results depend on the processing

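The log2 fold change of Prg2 was positive in all 16 alternatives (2.10 to 3.12), as was that of Epx (1.13 to 2.60); leaving out 1 array each gave 2.23 to 3.12 and 1.13 to 2.60. Cpa3 was positive in 15 (0.33 to 1.34), and Gata2 by 1428816_a_at was negative in 16 (-0.78 to -0.12). Mcpt8 was positive in 12 (0.07 to 1.24). Cpa3 failed the filter at the 60th percentile, and Mcpt8 failed there and when any 1 of the 3 arrays on which it passed was left out, so these gave no value. Of 10 member probe sets, 4 lay near background, with 4 to 6 under limits from the 30th to the 60th percentile, and 0 with the highest tryptophan control signal as the limit, which was the lower limit on all 6 arrays. Leaving out 1 array each gave 4 or 5.

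Of the other genes of these lineages, 0 passed limma's threshold as reported and in all 16 alternatives. Over all probe sets there were 0 calls, 19 with the replicate number as a block, 21 with the array name as a block, 1 without Ly6G- DC 2 and 0 in the remaining alternatives. Correlations between the deviations of same-numbered arrays were 0.52, 0.26 and -0.04, so the numbers were not shown to pair the samples. These values cannot exclude a pairing, since Ly6G+ DC 3 and Ly6G- DC 3 lie on different sides of the hybridization controls. With the replicate block Prg2 had 2.61 ± 0.39 and Epx 1.98 ± 0.46 (SE). Signals near background limit what can be said of Ccr3, Ms4a2, Fcer1a and Mcpt8.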

Other observations

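The titles give the 2 arrays numbered 1 another array name than the remaining 4. Of the 54 genes outside the members, 9 were lower on both arrays numbered 1 than on all other arrays (16.7%) and 10 were higher (18.5%). These shares are near those over all 13262 genes, 15.1% and 13.6%. The genes named next were chosen after their values were seen. Among the 9 were the eosinophil genes Siglecf, Ear3 and Rnase2a. Rnase2a, a ribonuclease gene, had signals of 81.4 and 74.3 on the arrays numbered 1 and 155 to 227 on the others. Runx1, a transcription factor of blood development, had 263 and 152 on the arrays numbered 1 and 791 to 1590 on the others. Slc18a2, a transporter that fills granules with monoamines, had 2.49 and 5.77 against 27.2 to 173. It was above the 40th percentile on only 3 arrays, and both arrays numbered 1 were under it. Among the 10 that were higher was Ltc4s, with 1511 and 2189 against 506 to 892.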
